A study of Homo sapiens with 4 samples.

Results

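H3.3 intervals at promoters that were narrower 3 h after UV-C than without UV are described here. They were chosen by their widths: an interval of the list without UV had to lie within 1 kb of the annotated 5′ end of a protein-coding gene, to overlap exactly 1 interval of the UV list that overlapped no other interval without UV, and to be at least 1.5 times as wide as it. Of the 88806 distinct intervals without UV on chromosomes 1 to 22 and X, 8431 lay within 1 kb of such a 5′ end, 6065 of these had a single counterpart after UV, and 283 met the width rule. The 5′ ends of 323 protein-coding genes lay within 1 kb of the 283 intervals. The gene whose 5′ end was nearest to the strongest summit without UV gave an interval its name and orientation, which left 278 genes, 5 of them with a pair of intervals.

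H3.3 is the histone H3 variant that chaperones place into chromatin outside DNA replication, with the HIRA complex acting at active genes and enhancers and the DAXX-ATRX complex at repeats and telomeres. Active promoters turn their nucleosomes over quickly, and H3.3 is known to accumulate in the nucleosomes that flank the nucleosome-depleted start site. After UV, HIRA is known to deposit new H3.3 in damaged chromatin, where pyrimidine dimers block RNA polymerase II.

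H3.3 was measured by chromatin immunoprecipitation and sequencing in MRC5 cells, a human fetal lung fibroblast line that the study used in its SV40-immortalized form. One group was not irradiated, and the other was harvested 3 h after 10 J/m2 UV-C. The labels give no other treatment for either group and call the cells wild type. DNA of 3 replicates was pooled before sequencing, so that 1 library represents each condition. UV and the library cannot be told apart, no test between the conditions was made, and the narrowing has no replicate check. In a pool of cells, a nucleosome stretch that loses H3.3 in each cell and one that loses it in part of the cells also cannot be told apart.

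The median width of all distinct intervals was 435 bp without UV and 449 bp among the 77173 intervals after UV. The narrowest interval was 281 bp without UV, a width that 7775 intervals shared, and 294 bp after UV, shared by 6253. Peak lists carry no read numbers, so the depth is unknown. Each interval carries the authors' −log10 q and fold enrichment, given separately for each list and against a control that is not stated. Of 10 fibroblast marker genes, *COL1A1*, *COL1A2*, *VIM* and *PDGFRB* had an H3.3 interval within 1 kb of the 5′ end in both lists, *PDGFRA* and *FN1* had one in the UV list only, and *COL3A1*, *THY1*, *S100A4* and *DCN* in neither. Of the lung mesenchyme markers, *FOXF1* and *TCF21* had one in both lists and *TBX4* and *TBX5* in neither. None of 5 endothelial markers had an interval, against *CD14* among 5 leukocyte markers and *KRT8*, *KRT18* and *SFTPC* among 7 epithelial ones. No marker had a narrowed interval, but few had a promoter interval with a single counterpart after UV. There were 3 such pairs at fibroblast, 2 at lung mesenchyme and 4 at epithelial markers, and 0 at endothelial and leukocyte ones. Over all promoter pairs 4.67% narrowed.

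The sequence where H3.3 receded is shown for 3 of the intervals with the largest width ratios, in a 200-base window across the receding edge that held no annotated UTR. Capitals mark the 100 bases still inside the interval after UV, and lower case marks the 100 bases that were inside only without UV. Each is written 5′ to 3′ on the strand of the named gene, from hg38. The windows lie at chr12:39620392-39620591 (*ABCD2*), chr17:61862995-61863194 (*BRIP1*) and chr15:41894868-41895067 (*SPTBN5*), all on the minus strand.
ABCD2: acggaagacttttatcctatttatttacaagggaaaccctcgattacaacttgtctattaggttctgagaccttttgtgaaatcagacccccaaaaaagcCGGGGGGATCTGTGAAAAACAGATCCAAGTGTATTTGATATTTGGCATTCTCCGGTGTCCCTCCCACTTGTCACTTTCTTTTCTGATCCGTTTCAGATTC
BRIP1: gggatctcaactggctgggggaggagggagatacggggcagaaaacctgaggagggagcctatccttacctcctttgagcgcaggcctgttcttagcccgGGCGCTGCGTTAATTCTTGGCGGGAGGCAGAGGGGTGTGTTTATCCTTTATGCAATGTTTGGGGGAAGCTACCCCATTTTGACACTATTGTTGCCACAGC
SPTBN5: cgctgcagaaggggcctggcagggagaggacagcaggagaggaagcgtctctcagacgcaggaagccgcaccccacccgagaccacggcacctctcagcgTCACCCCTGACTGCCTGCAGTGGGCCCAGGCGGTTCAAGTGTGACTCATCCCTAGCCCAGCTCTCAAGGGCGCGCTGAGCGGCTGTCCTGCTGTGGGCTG
Counted from the 5′ end with upstream negative, the edge of the UV interval was at −688 bp at *ABCD2*, between annotated genes, and at −914 bp at *SPTBN5*, in an exon of the lncRNA ENSG00000174171. At *BRIP1* it was 465 bp downstream of the 5′ end, in an exon of the gene itself. The lost 100 bases had 38% GC and the kept 100 bases 45% at *ABCD2*. At *BRIP1* and *SPTBN5* the lost side had 60% and 68% against 51% and 66%.

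Across the 283 narrowed intervals the median width was 801 bp without UV (quartiles 632 and 1062 bp) and 405 bp after UV (quartiles 334 and 519 bp). Widths ran from 443 to 2383 bp without UV and from 294 to 1572 bp after UV. The median width ratio was 1.84, with 102 intervals at 2 or more, 12 at 3 or more and a highest value of 4.33. A median of 401 bp was lost, and 176 of the 283 UV intervals (62.2%) lay wholly inside the interval without UV. The remaining 107 gained bases at one edge while losing more at the other. These values chose the intervals and are a description.

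**Figure D1:**
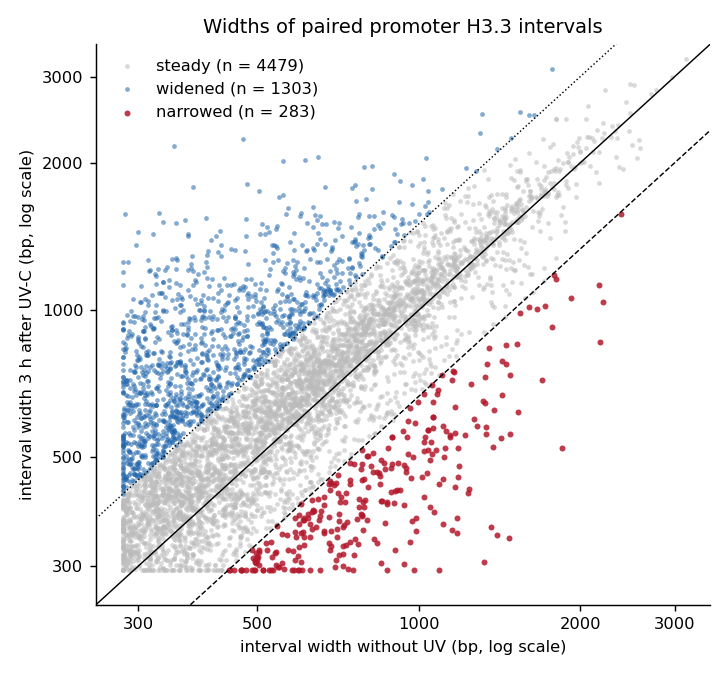
Width of each of 6065 paired promoter H3.3 intervals without UV (x axis, bp, log scale) and 3 h after UV-C (y axis, bp, log scale); the solid line marks equal width, the dashed line a ratio of 1.5 and the dotted line its inverse. The 283 narrowed intervals (red) lie below the dashed line, and 1303 widened intervals (blue) lie above the dotted one.

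Narrowing was the less common direction at promoters. Of the 6065 pairs, 4.67% narrowed (95% interval 4.15 to 5.23%, exact and for counting error only), 21.5% widened by the inverse rule (1303 pairs) and 4479 were steady. The median width ratio of all promoter pairs was 0.867, a log2 of −0.21, so that the typical promoter interval was wider after UV. With ratios divided by that median, 492 intervals narrowed and 839 widened, or 0.586 narrowed per widened interval against 0.217 before. Away from promoters, 17.1% of 36940 pairs narrowed and 12.7% widened, with a median ratio of 1.02. A promoter interval had to be at least 441 bp wide to narrow to the narrowest UV width, and 3810 of the 6065 pairs were. Of these, 7.43% narrowed. The width without UV enters the ratio, so that shares by width are fixed in part by the rule. In the widest quartile without UV (765 to 3150 bp) 158 of 1518 pairs narrowed and 71 widened, whereas in the widest quartile after UV (931 to 3264 bp) 10 of 1519 narrowed and 490 widened. The UV interval was at the narrowest width of its list for 25 of the 283.

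The narrowed intervals mostly lay beside the 5′ end rather than on it. Without UV, 68 of the 283 covered the 5′ end (24.0%, 95% interval 19.2 to 29.4%), 137 lay wholly upstream (48.4%) and 78 wholly downstream (27.6%). Steady intervals covered it in 38.4% of cases and lay upstream in 21.1% and downstream in 40.5%. Widened intervals covered it in 27.5%, with 18.4% upstream and 54.1% downstream. The strongest summit without UV was at a median of −319 bp from the 5′ end in narrowed intervals, 218 bp in steady and 240 bp in widened ones, where negative values are upstream. After UV, 45 of the narrowed intervals covered the 5′ end, including 41 of the 68 that did so before.

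**Figure D2:**
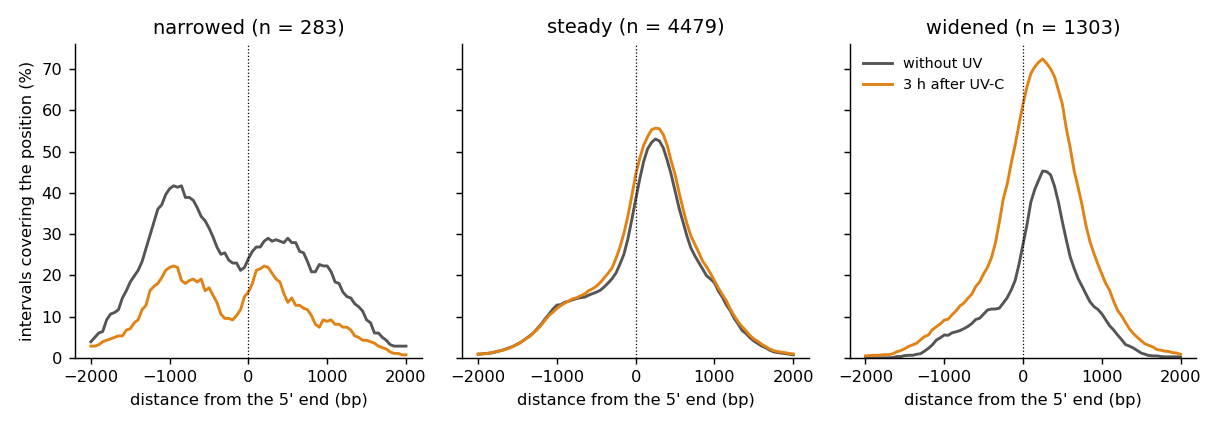
Percent of intervals that cover each position from 2000 bp upstream to 2000 bp downstream of the 5′ end (x axis, bp, transcription to the right), without UV (grey) and 3 h after UV-C (orange), for narrowed, steady and widened pairs. At −1000 bp, 41.0% of the narrowed intervals covered the position without UV and 21.9% after UV, whereas steady intervals were most frequent downstream of the 5′ end in both libraries.

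More sequence was lost upstream than downstream of the 5′ end. The narrowed intervals lost 80.7 kb upstream and 51.7 kb downstream, and 171 of the 283 lost more upstream (60.4%, 95% interval 54.5 to 66.2%) against 112 downstream (39.6%). Their bases were already mostly upstream, with 58.8% of the bases without UV and 61.0% of the lost bases on that side. Of the upstream bases 54.3% were lost, and of the downstream bases 49.6%. The 68 intervals that covered the 5′ end were split evenly, with 34 losing more upstream and 34 downstream, and a median loss of 217 bp upstream and 154 bp downstream. Of the bases that widened intervals gained, 38.1% lay upstream. Without UV, 705 of the 1303 widened intervals lay wholly downstream and 240 wholly upstream, so this share is not directly comparable with the 61.0%.

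Counted by edge rather than by position, both sides were alike. The upstream edge moved more in 142 intervals and the downstream edge in 141, with a median retreat of 164 and 156 bp. Among the 137 upstream intervals the upstream edge, which faces away from the gene, moved more in 76. Among the 78 downstream intervals the downstream edge did so in 45. Over the 215 intervals off the 5′ end, the edge far from the 5′ end moved more in 121 (56.3%, 95% interval 49.4 to 63.0%), with a median retreat of 186 bp against 135 bp at the near edge. Retreat was mostly one-sided. One edge alone retreated in 109 intervals, one edge gave over 75% of the retreat in another 112, and both edges contributed more evenly in 62.

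The largest ratio was at *ABCD2*, a peroxisomal transporter of very long-chain fatty acids, where the interval at chr12:39619929-39621253 measured 1325 bp without UV and 306 bp after UV. Both edges moved, 762 bp upstream and 257 bp downstream, while the strongest summit stayed within 3 bp. *RAB4B*, a small GTPase of endosome recycling, had an interval of 1473 bp that became one of 343 bp (ratio 4.29), with all of the loss at the edge facing the gene. Its strongest summit was at −985 bp without UV and at −2036 bp after UV, and another interval covered the 5′ end in both lists. *ZNF254*, a zinc finger gene, changed from 1398 to 348 bp (ratio 4.02) in an interval that began 163 bp inside the gene, with 1017 bp of retreat at its downstream edge. The edge far from the 5′ end thus gave most of the retreat at *ABCD2* and *ZNF254*, and the near edge at *RAB4B*.

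*BRIP1*, the helicase that binds BRCA1 in DNA repair, had the only interval among the 10 largest ratios that covered the 5′ end. At chr17:61862931-61864021 it measured 1091 bp without UV, and the 294 bp interval after UV began 465 bp downstream. The −log10 q was 3.50 without UV and 2.83 after UV (percentiles 29.4 and 13.7 of the lists). *BBC3*, which encodes the p53-induced cell death protein PUMA, had an upstream interval of 1153 bp that became 356 bp wide (ratio 3.24), losing 711 bp at its upstream edge. *SPTBN5*, a spectrin, lost 1343 bp, the largest upstream loss. *TMCO2*, *SCFD1*, *CBFA2T2* and *PAOX* completed the 10 with ratios of 3.77, 3.37, 3.33 and 3.14. *SCFD1* acts in transport from the endoplasmic reticulum, *CBFA2T2* is a corepressor and *PAOX* a polyamine oxidase. Of the 10 intervals, 7 lay upstream of the 5′ end.

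Some members with large losses were among the strongest intervals of the list. *PEA15*, a phosphoprotein that binds ERK, had an interval of 2181 bp at chr1:160205207-160207387 that covered the 5′ end, with 4 summits and 16.3-fold enrichment at the strongest. After UV it was 863 bp wide and had 1 summit with 9.04-fold enrichment. Its −log10 q was 73.2 without UV and 53.6 after UV. The downstream edge moved by 1243 bp and the upstream edge by 75 bp. *EXTL1*, a heparan sulfate glycosyltransferase, changed from 2209 to 1038 bp with a downstream retreat of 1265 bp, after which its interval ended upstream of the 5′ end. The sodium channel gene *SCN8A* and the myelin gene *SH3TC2* lost 976 and 1030 bp downstream. *ABCC2*, an organic anion export pump, ENSG00000284895 and *TBC1D13*, a regulator of Rab GTPases, lost 1096, 1053 and 1043 bp upstream.

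**Figure D3:**
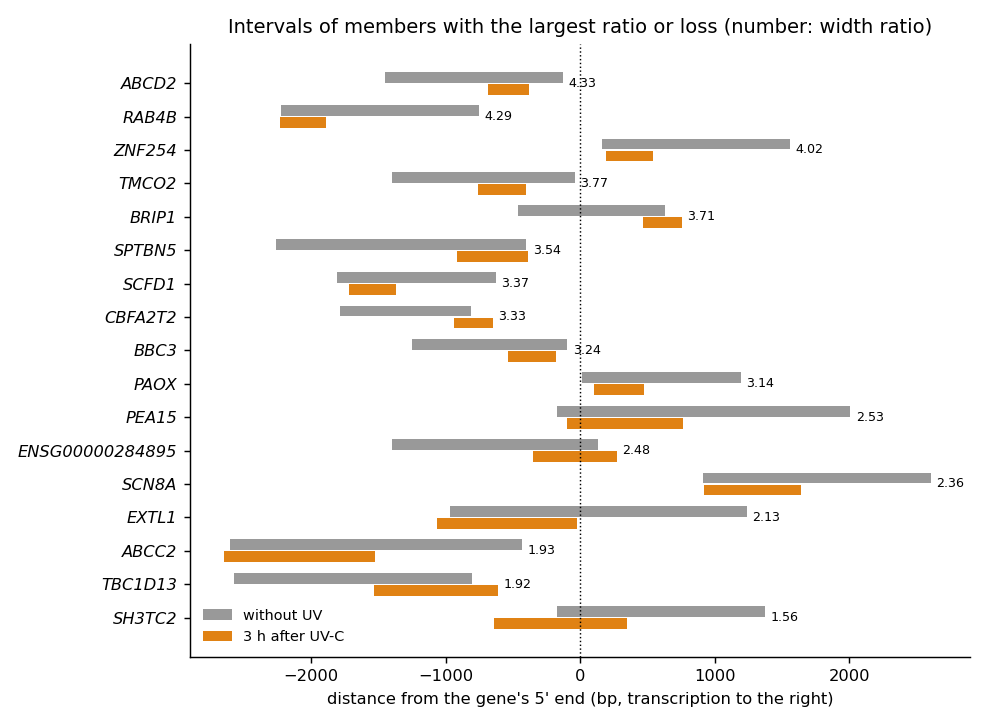
Intervals of the 17 members with the largest width ratio or the largest loss on a side, drawn to scale against the 5′ end of the named gene (x axis, bp, transcription to the right), without UV (grey) and 3 h after UV-C (orange), with the width ratio beside each. Upstream intervals such as *ABCD2* (4.33) and *BBC3* (3.24) stayed upstream, and *PEA15* (2.53) and *EXTL1* (2.13) receded on their downstream side.

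The −log10 q went up in some narrowed intervals and down in others. Narrowed intervals had a median −log10 q of 7.50 without UV (range 1.44 to 106) and 6.61 after UV (range 1.37 to 126), and the value was higher after UV in 130 of the 283. As a percentile of the own list, the median was 69.1 without UV and 55.1 after UV. Steady intervals stood at 83.9 and 88.0, and widened ones at 73.8 and 86.2. The percentile was lower after UV in 67.8% of narrowed, 39.7% of steady and 24.9% of widened pairs. The −log10 q and the width come from the same lists, and how far the width rule enters these shares was not tested. Of promoter pairs in the weakest quartile by −log10 q without UV, 106 of 1515 narrowed, against 33 of 1517 (2.18%) in the strongest. Widening was also more frequent in the weakest quartile, with 453 pairs (29.9%) against 188 (12.4%) in the strongest. Several summits were called in 113 narrowed intervals without UV and in 14 after UV, and 101 of the 113 were left with 1 summit. In widened pairs the count went the other way, from 81 to 527 of 1303. Among the 4479 steady pairs it was 1118 without UV and 968 after UV. A wider interval has room for more summits, so the width rule bears on these counts, and how far was not tested. The strongest summit without UV was inside the UV interval for 235 of the 283 (83.0%), against 98.8% of steady and 99.1% of widened pairs. The strongest summits of both lists were a median of 56 bp apart, against 27 bp in steady and 31 bp in widened pairs. The width rule also bears on the share of summits inside the UV interval, since a narrower UV interval can hold less of the earlier one.

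The 5 strongest narrowed intervals without UV kept a high rank after UV. *ZHX2*, a homeobox repressor, had a −log10 q of 106 without UV and 126 after UV in an interval that changed from 984 to 587 bp and whose lost 448 bp were intronic. *B3GAT3*, which builds the linker of glycosaminoglycans, stood at 98.9 and 99.3, with widths of 936 and 567 bp. *CBX1*, which encodes the heterochromatin protein HP1 beta, stood at 74.8 and 107, and its interval of 1791 bp, which also lies within 1 kb of the 5′ end of *SNX11*, lost 635 bp upstream. *FKBPL* fell in rank more than the others, from percentile 99.3 to 92.6, with 56.0 and 28.1. *PEA15* was at percentile 99.7 and 97.8.

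Narrowed intervals had a lower GC content than other promoter intervals. The interval without UV had a median GC content of 51.7% when narrowed (quartiles 48.2 and 58.5%), 69.2% when steady and 71.2% when widened. Sequence was not part of the width rule, but it was read from the same intervals. In the lowest GC quartile of promoter pairs (31.3 to 62.7%), 231 of 1516 narrowed (15.2%, 95% interval 13.5 to 17.1%) and 12.7% widened. In the highest quartile, 9 of 1517 narrowed (0.593%, 95% interval 0.272 to 1.12%) and 31.1% widened. Within the lowest quartile, the narrowed share was 16.2% for upstream intervals, 14.7% for those that covered the 5′ end and 13.8% for downstream ones, with overlapping 95% intervals. Over all GC contents the same shares were 10.4%, 3.17% and 3.00%.

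Within a narrowed interval, the lost part was poorer in GC than the part that stayed. The median was 50.3% in lost and 53.5% in kept sequence, and GC content was lower in the lost part in 207 of the 283 (73.1%, 95% interval 67.6 to 78.2%). The observed over expected frequency of CpG, the dinucleotide of CpG islands, had a median of 0.385 in lost and 0.547 in kept sequence. For the 68 intervals covering the 5′ end, lost and kept GC content were 56.3% and 65.5%. Dipyrimidine steps, the sites where UV-C forms photoproducts, made up a median of 58.0% of steps in lost and 57.1% in kept sequence, counting pyrimidine pairs on either strand, and their share was lower in the lost part in 43.1% of intervals. Widened intervals showed a like gradient, since the sequence they gained had 67.0% GC and the part shared by both lists 71.3%.

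**Figure D4:**
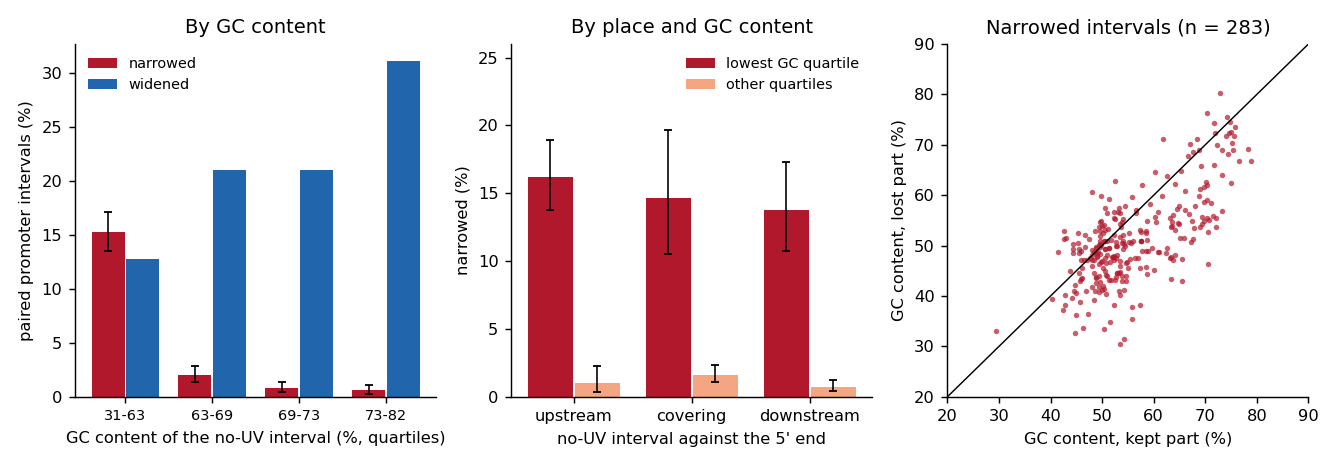
Left, percent of paired promoter intervals that narrowed (red, with exact 95% intervals) or widened (blue) by quartile of GC content; middle, percent narrowed by place against the 5′ end in the lowest GC quartile (dark) and in the others (light), with exact 95% intervals; right, GC content of the lost (y axis, %) against the kept part (x axis, %) of each of the 283 narrowed intervals, with the line of equality. The narrowed share was 15.2% in the lowest and 0.593% in the highest quartile, and 207 points lie below the line.

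By annotation, 20.2% of the lost bases were exonic, 38.4% intronic and 41.5% between genes, and the kept bases gave 24.7%, 37.4% and 37.9%. A start of a non-coding transcript lay in the lost part of 12 intervals and in the kept part of 9. A transcript start of a protein-coding gene lay in the lost part of 60 and in the kept part of 63. In widened intervals 55.7% of the gained parts held such a start.

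Known promoter motifs were searched on both strands in the 300 bases from 250 before to 50 after the 5′ end, with each interval counted once. None of these motifs contains another. The GC box (GGGCGG), bound by SP factors, was in 55.1% of the promoters with a narrowed interval (95% interval 49.1 to 61.0%), 69.5% of those with a steady one, 73.1% of those with a widened one and 52.5% of all 19933 protein-coding promoters. The AP-1 motif (TGANTCA), bound by FOS and JUN dimers, was in 9.54% (95% interval 6.38 to 13.6%), 5.05%, 4.22% and 6.39% in that order. The TATA box (TATAAA) was in 31 of the 283, 6.36%, 5.91% and 10.8%, and the CCAAT box (CCAAT) in 41.3%, 34.2%, 31.5% and 35.9%. The ETS motif (CCGGAAG), the cAMP response element (TGACGTCA) and the NRF1 core (GCGCATGC) were in 15.5%, 4.24% and 3.53% of the narrowed and 14.0%, 2.57% and 4.18% of the steady promoters. The ETS motif was in 12.6% of the widened and 11.9% of all protein-coding promoters, the cAMP response element in 26 of 1303 and 2.28%, and the NRF1 core in 4.91% and 3.75%.

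Inside the intervals themselves, GC boxes occurred at 17.6 matches per 10 kb in narrowed, 48.3 in steady and 54.9 in widened intervals. In the narrowed ones there were 11.5 per 10 kb in the lost and 23.8 in the kept part. AP-1 motifs occurred at 2.41 per 10 kb in narrowed, 1.46 in steady and 0.951 in widened intervals, and at 2.49 in lost and 2.24 in kept sequence. In the same order of groups, TATA boxes occurred at 3.68, 1.08 and 0.830, CCAAT boxes at 10.1, 6.11 and 5.13 and NRF1 cores at 1.07, 0.773 and 0.605. ETS motifs were sparser in narrowed intervals (1.46, 2.64 and 2.90). The cAMP response element stood at 0.237, 0.253 and 0.173. A match describes the letters and is no binding site. The densities of GC boxes and of the other motifs are not independent of the GC content given above.

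Among the gene lists examined, genes of the cytosolic ribosome had the highest share of narrowed intervals. Of 87 genes, 39 had a paired promoter interval, and 11 of their 47 pairs narrowed (23.4%, 95% interval 12.3 to 38.0%) while 4 widened, against 4.67% and 21.5% of all promoter pairs. The median ratio of the list was 1.02, against 0.867 over all pairs. The intervals of this list had a median GC content of 56.5%, and 26 of the 47 were in the lowest GC quartile. Of those 26, 10 narrowed, against 231 of 1516 in that quartile as a whole. Only 6 of the 47 pairs covered the 5′ end.

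The 11 ribosomal intervals belonged to *RPS16*, *RPS27L*, *RACK1*, *RPL26L1*, *RPL27*, *RPL27A*, *RPS15A*, *RPL23A*, *RPLP0* and, on either side of its 5′ end, *RPL19*. All 11 lay off the 5′ end, 5 upstream and 6 downstream. *RPS16* had the largest ratio at 2.46: its interval at chr19:39434388-39435498, inside the gene 451 bp from the 5′ end, measured 1111 bp without UV and 452 bp after UV, with −log10 q of 12.3 and 16.3. The interval is also within 1 kb of the 5′ end of *SUPT5H*, which encodes the elongation factor SPT5. *RPS27L*, an upstream interval, changed from 756 to 316 bp (ratio 2.39), and an interval over its 5′ end was listed only after UV. *RACK1*, a scaffold on the small subunit, changed from 702 to 308 bp (ratio 2.28). The pair at *RPL19* measured 595 and 790 bp without UV and 314 and 452 bp after UV. *RPS15A* was the strongest of the 11, with a −log10 q of 28.2 and 24.6 and a ratio of 1.54. In all 11 the lost part was poorer in GC than the kept part, by the least at *RPL19* downstream (47.0% against 47.1%). Ribosomal protein and histone genes have near-identical copies elsewhere in the genome, and how reads of such copies were placed is not given in the sources used here.

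Histone genes had 5 narrowed and 8 widened intervals among 43 pairs (11.6%, 95% interval 3.89 to 25.1%), all 5 at replication-dependent genes on chromosome 6. Of the 43 pairs, 32 were in the lowest GC quartile, and these held all 5, against 15.2% narrowed in that quartile as a whole. *H4C5* changed from 596 to 294 bp, *H3C7* from 666 to 354 bp, the interval near *H2AC4* and *H3C2* from 540 to 319 bp, that near *H2AC12* and *H2BC12* from 504 to 301 bp and that near *H2BC4* and *H2AC6* from 666 to 400 bp. At *H3C7* the interval moved: it began 234 bp downstream of the 5′ end without UV and covered it after UV, and its −log10 q was 2.64 and 9.99. In these 5 intervals the lost part had 35.5 to 53.1% GC and the kept part 53.4 to 64.2%. Of the H3.3 genes, chaperones and remodellers, 1 of 14 pairs narrowed (7.14%, 95% interval 0.181 to 33.9%), against 4.67% of all promoter pairs. It was at *ASF1B*, a chaperone that hands H3-H4 to the deposition machinery, with widths of 715 and 415 bp and a −log10 q of 10.4 and 3.06.

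**Figure D5:**
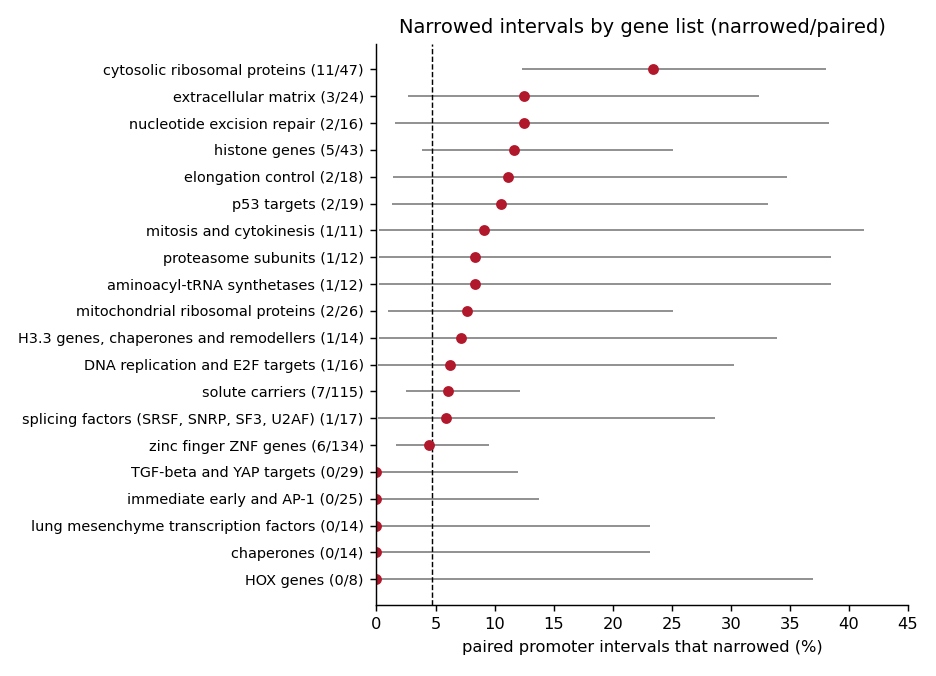
Percent of paired promoter intervals that narrowed in each of 20 gene lists (points) with exact 95% intervals for counting error (bars); the dashed line is the share over all 6065 pairs, 4.67%. Cytosolic ribosomal proteins stand at 23.4%, and 5 lists have no narrowed interval.

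Genes of nucleotide excision repair, which removes UV photoproducts, had 2 narrowed and 3 widened intervals among 16 pairs. *ERCC2*, the XPD helicase of TFIIH, had an interval 626 bp upstream of its 5′ end that changed from 988 to 376 bp (ratio 2.63), with a −log10 q of 4.78 and 2.88. *ERCC5*, the XPG endonuclease, had one over its 5′ end that changed from 685 to 330 bp and ended up just downstream of it, with 3.73 and 4.51. Of 19 pairs at p53 targets, 2 narrowed and 5 widened. The narrowed p53 targets were *BBC3* and *TRIAP1*, an inhibitor of apoptosis, whose interval of 679 bp inside the gene became 334 bp wide. All 4 narrowed intervals of the repair and p53 lists were in the lowest GC quartile, as were 231 of all 283. That quartile held 6 of the 16 repair pairs and 4 of the 19 p53 pairs.

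The extracellular matrix list had 3 narrowed intervals among 24 pairs, 2 of them at *SPARC* and 1 at *MMP14*. *SPARC*, a matricellular protein made by fibroblasts, had one 887 bp downstream (848 to 458 bp) and one 859 bp upstream (502 to 313 bp), and an interval over its 5′ end was listed only after UV. *MMP14*, a membrane-bound metalloproteinase, had an upstream interval that changed from 567 to 347 bp. Elongation control had 2 of 18, that shared by *RPS16* and *SUPT5H* and one at *AFF4*, the scaffold of the super elongation complex, where 488 bp became 324 bp. Single narrowed intervals were at *ORC1* among 16 pairs of replication genes, at *SPC24* among 11 of mitosis genes (ratio 2.79), at *PSMB2* among 12 of proteasome subunits (ratio 2.97), at *WARS1* among 12 of aminoacyl-tRNA synthetases, and near *SNRPD2* and *QPCTL* among 17 of splicing factors. Mitochondrial ribosomal proteins had 2 of 26, at *MRPS21* (607 to 294 bp) and *MRPL53* (957 to 508 bp).

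The largest lists stood near the background. Of 134 pairs at zinc finger genes 6 narrowed (4.48%) and 19 widened. After *ZNF254*, the largest ratios were at *ZNF19* (721 to 300 bp) and *ZNF512B* (805 to 503 bp). Of 115 pairs at solute carriers 7 narrowed (6.09%) and 32 widened. Among the solute carriers, *SLC43A3*, *SLC50A1* and *SLC25A36* had the largest ratios, 2.91, 2.48 and 2.35. At *SLC43A3* the width changed from 1235 to 424 bp while the −log10 q was 28.2 without UV and 55.9 after UV. No interval narrowed among 25 pairs at immediate early and AP-1 genes, 29 at TGF-beta and YAP targets, 14 at chaperones, 14 at lung mesenchyme transcription factors and 8 at HOX genes. The upper ends of their exact 95% intervals ran from 11.9 to 36.9%, all above the 4.67% of all promoter pairs.

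Narrowed intervals off the 5′ end often had company. Of the 215, 109 had another interval without UV within 1 kb of the same 5′ end (50.7%, 95% interval 43.8 to 57.6%), against 42.3% of steady and 28.4% of widened intervals off the 5′ end. The other interval had the higher −log10 q in 66 of the 109. After UV, 127 of the 215 had another interval. One covered the 5′ end itself for 32 of the 215 without UV and for 54 after UV. These counts for steady and widened intervals are not given here. By another measure, the paired interval itself covered the 5′ end in 38.4% of steady pairs without UV and 44.4% after UV. The same shares were 27.5% and 61.5% for widened and 24.0% and 15.9% for narrowed pairs. Of 94 neighbouring intervals that had a counterpart, 7 narrowed and 13 widened, and beside steady intervals 61 narrowed and 166 widened of 979. At *AFF4* and *WARS1*, an interval covered the 5′ end in both lists beside the narrowed one.

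Just inside the threshold were *PVR*, an adhesion receptor, with 1106 and 737 bp, and *RBM22*, a splicing factor, with 545 and 363 bp. Just outside were *CTH*, an enzyme of cysteine synthesis, with 895 and 597 bp, and the orphan receptor gene *GPR85*, with 607 and 405 bp. At *PVR*, the −log10 q was 13.5 without UV and 48.4 after UV, against medians of 10.9 and 18.8 over all promoter pairs.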

How the data were processed

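H3.3 ChIP-seq was analysed in MRC5 cells without UV and 3 h after 10 J/m2 UV-C, grouped by the sample labels. The submitters' processing notes name bcl2fastq 2.17, Trimmomatic 3.36, BWA 0.7.12, hg38 and MACS 1.4.2, whereas the deposited lists have the columns of a later MACS format. The study's methods add that duplicate reads were removed with Biobambam2. The control and threshold of the H3.3 peaks are not given in the sources used here. The lowest −log10 q in the lists was 1.30 both without UV and after UV. The authors deposited 1 peak list per library. Each row holds an interval, a score, a fold enrichment (a linear ratio), and for its summit a −log10 q beside a −log10 p, as the authors gave them for that list. The deposited score and −log10 p were not used. These values depend on depth, which is unknown. Percentiles were taken within a list, and values of both lists set side by side are a description. Whether the depths differed, and how that bears on the widths, could not be tested. Input libraries were not analysed here.

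Repeated intervals were counted once, with their strongest summit. Genes came from GENCODE release 44, sequence from hg38, whose chromosome lengths no interval exceeds. Upstream and downstream refer to the gene whose 5′ end is nearest to the strongest summit without UV. Narrowed, steady and widened pairs were separated at a width ratio of 1.5 and its inverse. Intervals on shares are 95% Clopper-Pearson limits for counting error, and medians have quartiles. No p-value is given. Pairing was tested on simulated intervals centred on the 5′ end. Of 1329 pairs made as narrowed, steady or widened, 1329 were called as made, the narrowed ones with their side. The side of pairs off the 5′ end was not simulated. Scripts ran in Python 3.11.15 with pysam 0.24.0, pandas 2.3.3, numpy 2.4.6, matplotlib 3.10.9 and scipy 1.17.1.

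The intervals, gene lists and motifs were chosen with earlier results of these data known. Genes named are the 10 with the largest width ratio, the 5 with the highest −log10 q without UV, the 5 with the largest loss on either side, up to 3 of each gene list by ratio and the 2 pairs on either side of the threshold. Edge windows were read for the largest ratios, and those of some named genes are not reported here. The remaining narrowed ribosomal and histone genes were named after their values were seen. The alternatives tried concerned the width ratio, its centring, the −log10 q, the distance to the 5′ end, the gene starts, the overlap, the pairing, the number of summits and of 5′ ends, and the 5′ end used for the side.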

Additional observations from a re-analysis of the deposited data

How the results depend on the processing

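With 1 library per condition no library could be left out, and no paired analysis was possible because each group has 1 sample and no result comes from a test. Over 14 alternatives the share of narrowed intervals losing more sequence downstream ran from 34.9 to 50%, and it differed beyond counting error only with all transcript starts of protein-coding genes (45.9%) and with intervals covering the 5′ end (50%). Fewer narrowed than widened promoter intervals were found under all 13 alternatives, at 0.127 to 0.586 narrowed per widened.

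A ratio of at least 1.3, and ratios divided by their median, which amounts to nearly the same threshold, both gave 492 narrowed intervals (8.11% of pairs), and the latter 0.586 per widened interval. A ratio of at least 2 gave 102 (1.68%). A −log10 q of at least 5 gave 3.85% and 0.178 per widened interval. Within 500 bp of the 5′ end there were 178 (3.72%, 0.166 per widened), within 2 kb 490 (6.30%, 0.311) and with all transcript starts 922 (8.06%, 0.423). Without the 1-to-1 requirement the share was 4.08%, with 0.127 per widened. Pairs with 1 summit in each list gave 168 (4.06%). Chosen after seeing the data, intervals covering the 5′ end gave 68 (3.17%, 0.190), and pairs wide enough to narrow 7.43%. The numbers are over fewer or more intervals by construction; other causes were not tested. Of 58 further values on lost width, side, GC content and cover of the 5′ end, 39 stayed within the counting error or order-statistic interval of the value given, and the median GC content of the lost sequence stayed between 48.4 and 52.9%.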
